A study of Mus musculus with 6 samples.

Results

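The SLC25 carriers, a family of solute carriers found mostly in the mitochondrial inner membrane, were followed at the transcript level in the left atrium of mice with and without a leaking mitral valve. Members were the rows of the gene table whose symbol is Slc25a followed by a number alone, which gave 47 of 55471 genes. Surgery was done at 10 weeks of age and the tissue was taken 2 weeks later. The anterior mitral leaflet of the MR mice was punctured under echocardiographic guidance, which made the valve leak (mitral regurgitation, MR). The Sham mice had the cardiac apex punctured and the leaflet left whole. All mice were males of the C57BL/6J strain (labelled C57BL/6 in the sample records), with no engineered allele named. Each group had 3 libraries, labelled biological replicates, of poly(A) RNA from the whole left atrium. The comparison asks which transcripts differ while the atrium remodels under regurgitation.

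Carriers of this family share a fold of repeated membrane-spanning pairs and move nucleotides, phosphate, organic acids, amino acids, cofactors and metals between the cytosol and the mitochondrial matrix. In heart muscle, ATP leaves the matrix in exchange for ADP through adenine nucleotide translocases, and phosphate for ATP synthase enters through a carrier of the same family. Other members take part in the malate-aspartate shuttle, which passes reducing equivalents from the cytosol to the respiratory chain, and in the import of acylcarnitines for fatty acid oxidation. The genes are nuclear, and most of the proteins lack a cleaved targeting sequence and enter the inner membrane through the TIM22 complex.

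Gene counts summed to between 14124407 and 20039490 per library. Myl7, an atrial myosin light chain, stood at 5553 ± 828 CPM in MR and 8178 ± 899 CPM in Sham libraries (mean ± SD, n = 3 each), and the ventricular transcription factor Irx4 had 0 counts in every library. The other ventricular markers were detected. Myl3 had 51 ± 2.57 CPM in MR and 140 ± 15 CPM in Sham libraries (log2 fold change -1.46, edgeR adjusted p = 9.75e-05). Myh7 had 91 ± 28.6 CPM in MR and 142 ± 20.1 CPM in Sham libraries (edgeR adjusted p = 0.0535). Myl2 had 1.65 ± 0.77 CPM in MR and 0.735 ± 0.255 CPM in Sham libraries (edgeR adjusted p = 0.0859). CPM here are counts per 1000000 of the library size scaled by TMM, a factor that sets the bulk of genes to no net change. The 10 cardiomyocyte markers summed to 41200 to 59470 CPM in MR and 67310 to 77640 CPM in Sham libraries, and 6 of the 10 fell. Fewer cardiomyocytes and less of their RNA per cell cannot be told apart in whole tissue. Markers of macrophages summed to 619 to 832 CPM in MR and 465 to 474 CPM in Sham libraries, with 7 of 8 higher. Erythroid markers summed to 406 to 537 CPM in MR and 261 to 329.6 CPM in Sham libraries, with 4 of 5 tested genes higher. Fibroblast markers summed to 4963 to 5691 CPM in MR and 4136 to 4355 CPM in Sham libraries (2 of 8 higher), and endothelial markers to 1146 to 1345 CPM in MR and 881 to 1074 CPM in Sham libraries (3 of 8 higher). Smooth muscle markers summed to 75 to 118 CPM in MR and 50.7 to 64.9 CPM in Sham libraries (2 of 5 higher), and cell cycle genes to 26.1 to 36.9 CPM in MR and 5.49 to 16.3 CPM in Sham libraries (4 of 8 higher). Fat cell markers summed to 348, 604 and 7.13 CPM in MR libraries 1, 2 and 3 and to 3.43 to 14.3 CPM in Sham libraries, so MR libraries 1 and 2 stood apart.

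The promoters of 4 carriers are printed because these genes carry the contrasts described below: Slc25a4 and Slc25a3, both abundant and lower in MR, Slc25a5, the paralog of Slc25a4 that was not called, and Slc25a45, the carrier with the highest fold change. Each is the 250 bases before the gene start, 5′ to 3′ on the gene's strand, from RefSeq on build GRCm38.p6, which is older than the GRCm39 build of the counts. Capitals mark GC boxes (GGGCGG on either strand, the core bound by Sp1-type factors) and the site of nuclear respiratory factor NRF1 (GCGC, any base, then TGCGC, on either strand). They lie at chr8:46211063-46211312 on the minus strand (Slc25a4), chr10:91123968-91124217 on the minus strand (Slc25a3), chrX:36795347-36795596 on the plus strand (Slc25a5) and chr19:5877572-5877821 on the plus strand (Slc25a45).
Slc25a4: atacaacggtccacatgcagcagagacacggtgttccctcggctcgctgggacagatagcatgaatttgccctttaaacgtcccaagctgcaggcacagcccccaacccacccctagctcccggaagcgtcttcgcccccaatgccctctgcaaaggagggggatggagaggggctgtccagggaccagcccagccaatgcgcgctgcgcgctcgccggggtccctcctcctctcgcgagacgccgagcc
Slc25a3: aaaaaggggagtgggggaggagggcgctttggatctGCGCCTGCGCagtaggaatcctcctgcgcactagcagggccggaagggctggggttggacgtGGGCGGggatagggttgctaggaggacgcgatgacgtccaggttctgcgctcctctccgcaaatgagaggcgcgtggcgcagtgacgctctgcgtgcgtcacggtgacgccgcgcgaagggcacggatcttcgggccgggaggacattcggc
Slc25a5: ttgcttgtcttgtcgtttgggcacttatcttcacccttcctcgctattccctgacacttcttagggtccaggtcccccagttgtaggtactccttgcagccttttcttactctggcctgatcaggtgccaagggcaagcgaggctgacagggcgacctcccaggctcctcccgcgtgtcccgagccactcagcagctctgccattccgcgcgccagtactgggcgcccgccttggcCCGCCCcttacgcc
Slc25a45: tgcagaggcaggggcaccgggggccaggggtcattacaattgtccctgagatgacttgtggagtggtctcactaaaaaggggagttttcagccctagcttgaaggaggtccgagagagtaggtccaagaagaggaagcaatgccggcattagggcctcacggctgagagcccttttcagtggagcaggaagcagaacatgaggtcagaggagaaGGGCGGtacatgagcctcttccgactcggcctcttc

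The Slc25a4 window held neither set of letters, the Slc25a3 window held 1 GC box and 1 NRF1 match, and the windows of Slc25a5 and Slc25a45 held 1 GC box each. RefSeq promoters were at hand for 36 of the 47 carriers. A GC box was present in 25 of these 36 (69.4%), against 35.4% of the 27025 genes with a promoter of the same length. The 36 carrier promoters also had more G and C, with a median of 58.6%, against 52% over all promoters. An NRF1 match was present in 2 of the 36 (5.56%), against 4.23% of all genes. The letters CACGTG, an E-box, were found in 7 of the 36 (19.4%), those of Slc25a1, Slc25a13, Slc25a14, Slc25a15, Slc25a31, Slc25a33 and Slc25a36, against 6.86% of all genes. No carrier promoter held the letters AAGATGGCG (YY1, 0.71% of all genes) or TNAAGGTCA (estrogen-related receptors, 1.3% of all genes), and CTA and TAG with 4 bases between them (MEF2, 3.7% of all genes) was found in those of Slc25a10 and Slc25a22. These matches describe letters in the windows. The background of 27025 genes was not limited to the 15218 genes tested here, and shares among tested genes were not taken.

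Levels are compared between carriers in TPM, the deposited counts per gene length and library. Slc25a4, the adenine nucleotide translocase of heart and skeletal muscle, was far above the rest, at 2254 ± 143 TPM in MR and 2749 ± 388 TPM in Sham libraries. It made up 58.0 ± 1.04% of the summed carrier TPM in MR and 63.4 ± 2.36% in Sham libraries, and the share did not overlap between the groups. Slc25a5, Slc25a11 and Slc25a3 followed with means over the 6 libraries of 352, 350 and 309 TPM, and their order differed between the groups. Slc25a5 came first of these in MR libraries, with 383 ± 12 TPM against 325 ± 27 for Slc25a11 and 299 ± 37 for Slc25a3. In Sham libraries Slc25a11 came first, with 376 ± 21 TPM, while Slc25a5 at 321 ± 26 and Slc25a3 at 319 ± 30 TPM lay within each other's spread. With Slc25a4 they held 83.1% to 84.7% of the summed TPM in MR and 86.1% to 88.2% in Sham libraries. A gap separated these 4 from Slc25a39, a glutathione carrier, at 69.6 TPM, and from Slc25a23, a calcium-regulated carrier of ATP-Mg and phosphate, at 39.9 TPM. In all, 4 carriers had a mean above 100 TPM and 23 lay between 10 and 100 TPM. Another 12 tested carriers were below 10 TPM.

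**Figure D1:**
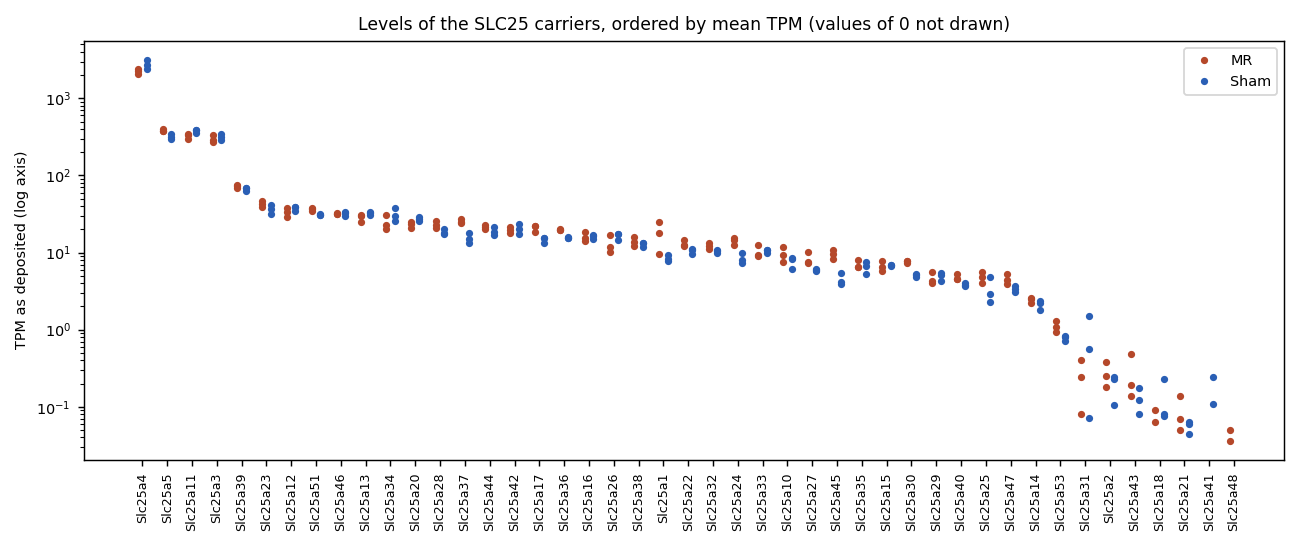
Deposited TPM (log axis) of the carriers named in the text in each library, ordered by mean over 6 libraries; MR libraries are left of Sham libraries and values of 0 are not drawn. Slc25a4 stands alone at the top, Slc25a5, Slc25a11 and Slc25a3 form a second tier, and a long shoulder runs from Slc25a39 downward.

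The remaining 8 carriers had too few counts to be tested. Slc25a31, the germ-cell adenine nucleotide translocase, had 3, 1 and 7 counts in MR libraries and 11, 22 and 1 in Sham libraries. Slc25a21, Slc25a43 and Slc25a2 had 14, 14 and 13 counts over the 6 libraries, Slc25a18 had 8, Slc25a41 had 4 and Slc25a48 had 2. Slc25a54 had 0 counts in every library, where 3 counts in a library correspond to 0.15 to 0.212 CPM of the unscaled total. None of the 8 had more than 22 counts in a library, too few to show a difference at this depth.

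Of the 39 carriers tested, 11 fell and 2 rose in MR atria with edgeR's quasi-likelihood test at an adjusted p of 0.05. The 11 were those for adenine nucleotides (Slc25a4), phosphate (Slc25a3), oxoglutarate (Slc25a11), aspartate and glutamate (Slc25a12, Slc25a13), acylcarnitines (Slc25a20), coenzyme A (Slc25a42, Slc25a16) and S-adenosylmethionine (Slc25a26), with Slc25a46 and Slc25a34. With DESeq2 it was 10 lower and 3 higher of 40 carriers, where 1577 genes were lower and 1616 higher of 17191. At an unadjusted edgeR p below 0.05 there were 20 carriers, 15 lower and 5 higher. The share of all genes at that limit was not taken. The 2 that rose were Slc25a37, mitoferrin-1, and Slc25a45. Carriers called lower were 28.2% of those tested, against 10.6% of the 15218 genes tested in the whole table, and carriers called higher were 5.13%, against 11.8%. In both directions together it was 33.3% of carriers, against 22.4% of all genes. The groups did not overlap in CPM for 17 carriers that were lower in MR, against a background of 21.2% of genes, and for 4 that were higher, against 20.6% (41.9% in both directions). In TPM the groups did not overlap for 4 carriers that were lower, against 3.25% of genes, and for 17 that were higher, against 52.2%. The median log2 fold change of the 39 carriers was -0.14, and 28 of the 39 were negative, while the median over all genes tested was 0.00.

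These directions depend on how libraries are scaled. The TMM factors ran from 1.05 to 1.11 in MR and from 0.914 to 0.941 in Sham libraries, and without them the median of all genes moved to 0.21 (log2), or to 0.28 on log2(TPM + 1). The carrier median was then 0.06 with library totals and 0.18 on log2(TPM + 1), positive in both, though still 0.15 and 0.09 below the median gene, against 0.14 below it with TMM. With library totals 6 carriers were called higher and 5 lower, where all genes gave 26.4% higher and 3.77% lower. With limma on log2(TPM + 1), 9 carriers were called higher and 0 lower (14 and 1 at an unadjusted p below 0.05), where all genes gave 38.6% higher and 1.64% lower. Relative to the median gene, the 11 lower carriers lay 0.34 to 0.69 below with TMM, 0.34 to 0.69 below with library totals and 0.27 to 0.63 below on log2(TPM + 1), and both higher carriers lay above it on each scale. Changes are therefore given below relative to the bulk of genes.

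**Figure D2:**
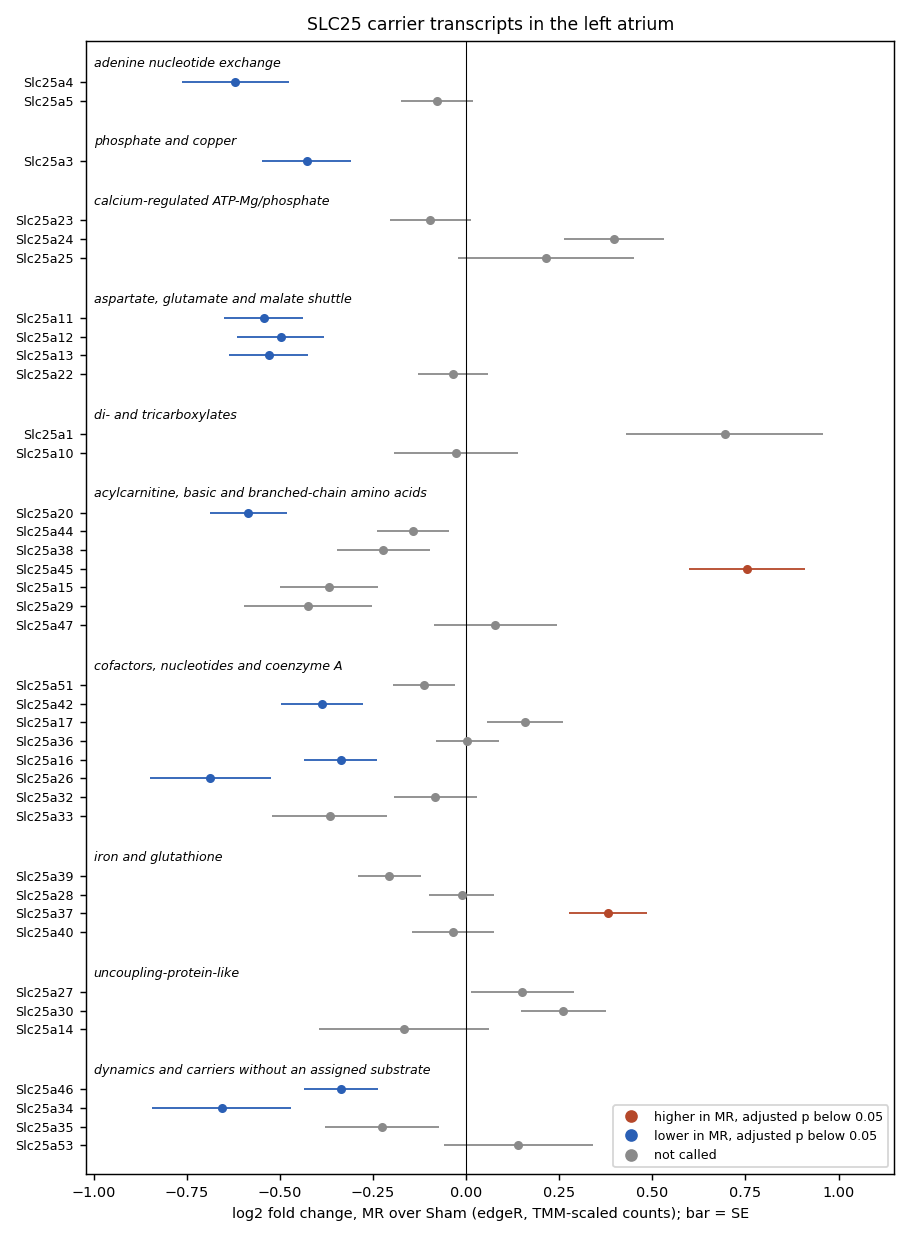
Log2 fold change of MR over Sham with its SE (edgeR, TMM-scaled counts) for the tested carriers named in the text, grouped by what they carry; blue is lower and red higher at an adjusted p below 0.05, grey not called. The 11 blue points lie between -0.69 and -0.34 and the 2 red points at 0.38 and 0.75; with library totals or TPM in place of TMM most points shift to the right by about the shift of the median gene.

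Adenine nucleotide exchange and phosphate import, the carriers that serve ATP synthase, came first by abundance. Slc25a4 had 2135, 1862 and 2196 CPM in MR libraries 1 to 3, against 3678, 2864 and 2972 CPM in Sham libraries. Every MR library lay below every Sham library. The mean was 34.9% lower (log2 fold change -0.62 ± 0.14 SE, edgeR adjusted p = 0.0148). Without Sham library 1, the highest, the adjusted p was 0.0615, and over the 6 fits that each left out a library it ranged from 0.0207 to 0.0615. With library totals Slc25a4 stayed called (edgeR adjusted p = 0.0415). The groups were also apart in TPM, but narrowly, with 2374 in MR library 1 and 2397 in Sham library 2. On log2(TPM + 1) Slc25a4 was not called (-0.28, limma adjusted p = 0.183).

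Slc25a5, the translocase isoform of proliferating and non-muscle cells, had 239, 246 and 250.3 CPM in MR libraries, against 283, 247 and 247 CPM in Sham libraries. The groups overlapped, with a log2 fold change of -0.08 ± 0.10 and an edgeR adjusted p of 0.591. On the TPM scale, which is not centred on the bulk of genes, Slc25a5 was 380.2, 397 and 373 in MR libraries and 349, 296 and 319 in Sham libraries, higher in all 3 MR libraries. That scale put 52.2% of all tested genes higher in MR without overlap. A ratio taken within each library does not depend on the scaling. Slc25a5 TPM was 16%, 18.9% and 16.3% of Slc25a4 TPM in MR libraries, against 11%, 12.3% and 11.9% in Sham libraries. The ratio was higher in 3 of 3 MR libraries, with a log2 difference of 0.54. The two-sided exact permutation p was 0.1, the smallest that 3 against 3 can give (0.3 after Benjamini-Hochberg adjustment over 6 ratios). The ratio was chosen after the values of both genes were seen, which neither p takes into account. It restates the fold changes of the 2 genes and is no separate result.

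Slc25a3, which carries phosphate and copper, had 719.7, 562 and 651 CPM in MR libraries, against 876, 813 and 912 CPM in Sham libraries. It was 25.7% lower (log2 fold change -0.43 ± 0.12, edgeR adjusted p = 0.0306). The groups did not overlap in CPM but did in TPM. With library totals the call was lost (log2 fold change -0.22, adjusted p = 0.167). It held in 1 of 6 fits that left out a library (without MR library 1), the adjusted p being 0.018 there and 0.059 to 0.0926 in the other 5. The TPM ratio of Slc25a3 to Slc25a4 overlapped between the groups, at 13.2 ± 0.94% in MR and 11.7 ± 1.48% in Sham libraries.

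Of the 4 tested carriers of aspartate, glutamate and the malate shuttle, 3 fell with edgeR and TMM, 2 with library totals and 0 on log2(TPM + 1). Of all genes, 10.6%, 3.77% and 1.64% were called lower in these 3 fits. Slc25a11, which exchanges oxoglutarate for malate, had 282, 236 and 286 CPM in MR libraries, against 407, 378 and 387 CPM in Sham libraries. It was 31.4% lower (log2 fold change -0.54 ± 0.11, edgeR adjusted p = 0.00828) and stayed called without any one library, with adjusted p from 0.0103 to 0.0386. Slc25a12 (aralar), the aspartate-glutamate carrier of excitable tissues, had 107, 80.1 and 100.5 CPM in MR libraries, against 142, 128 and 136 CPM in Sham libraries. Its log2 fold change was -0.50 ± 0.12 (edgeR adjusted p = 0.0156). The call was lost with library totals (-0.30, adjusted p = 0.07) and without Sham library 1, at an adjusted p of 0.0627 in a leave-one-out range of 0.0112 to 0.0627. Slc25a13 (citrin), its paralog best known in liver, had 42.7, 35.8 and 47 CPM in MR libraries, against 61.9, 59 and 60.5 CPM in Sham libraries. It was lower by a like amount (log2 fold change -0.53 ± 0.11, edgeR adjusted p = 0.0089) and stayed called without any one library. In TPM, Slc25a13 was 84.7 ± 6.75% of Slc25a12 in MR and 86.4 ± 2.25% in Sham libraries, overlapping. The glutamate carrier Slc25a22 had 30.3 ± 2.29 CPM in MR and 31 ± 2.24 CPM in Sham libraries and was not called (log2 fold change -0.04 ± 0.09, edgeR adjusted p = 0.819). The Slc25a11 exons overlap those of Rnf167 on the opposite strand by 189 bases in the GENCODE M21 annotation, and the sources used here do not give the strand setting of the counting, which means that a part of its reads could belong to Rnf167. Exons of other carriers, among them Slc25a26, Slc25a35, Slc25a25, Slc25a46 and Slc25a37, also overlap genes on the opposite strand, with the same limit. The levels of the overlapping genes differed. Sham libraries had 71.9 CPM of Rnf167, 73.9 CPM of Lrig1 (over Slc25a26) and 30.6 CPM of Rangrf (1151 bases over Slc25a35). They had 6.56 CPM of Naif1 (over Slc25a25) and 1.045 CPM of B930094E09Rik (over Slc25a46). The genes over Slc25a37 were not tested.

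**Figure D3:**
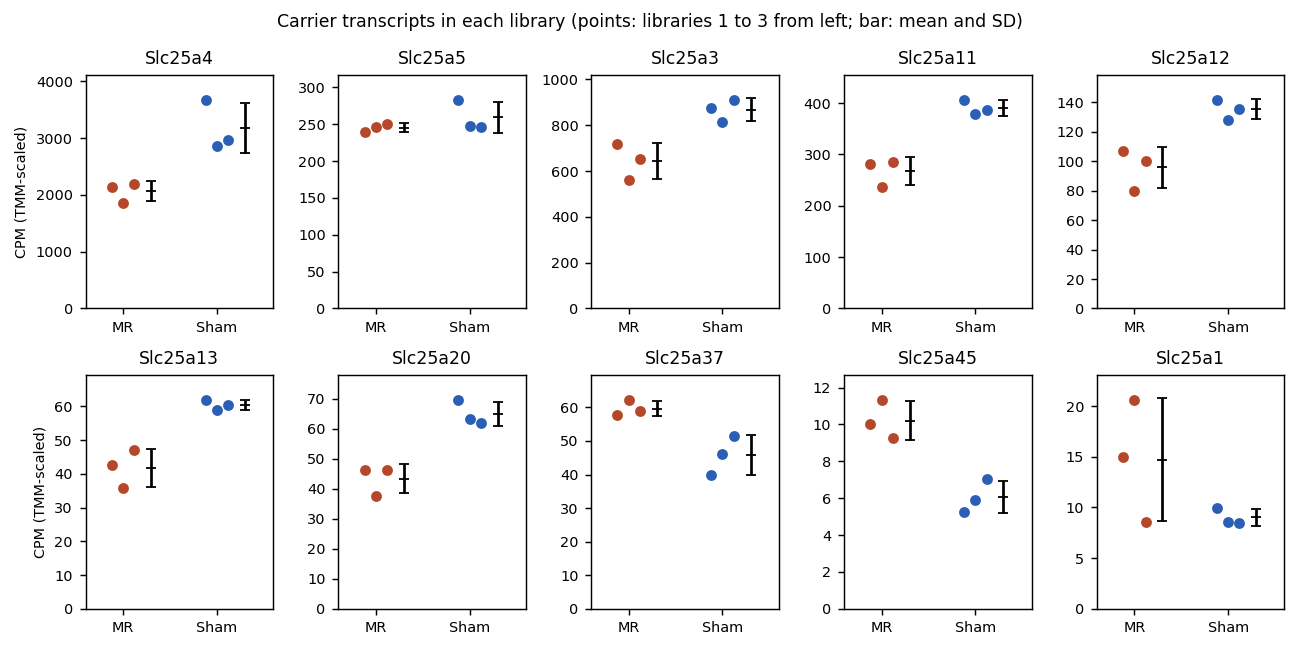
TMM-scaled CPM of 10 carriers in each library, MR left of Sham, with mean and SD (n = 3); each axis starts at 0. The groups are apart for Slc25a4, Slc25a3, Slc25a11, Slc25a12, Slc25a13, Slc25a20 (MR below Sham), Slc25a37 and Slc25a45 (MR above Sham), and overlap for Slc25a5 and Slc25a1.

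Slc25a20, the carnitine-acylcarnitine translocase that brings long-chain acyl groups to beta-oxidation, had 46.2, 37.7 and 46.2 CPM in MR libraries, against 69.7, 63.4 and 62 CPM in Sham libraries. All MR libraries lay well below all Sham libraries. It was 33.3% lower, with the smallest adjusted p among the carriers (log2 fold change -0.58 ± 0.10, edgeR adjusted p = 0.00569), and stayed called without any one library, with adjusted p from 0.00713 to 0.0286. Slc25a45, which groups by sequence with carriers of basic amino acids, moved the other way. It had 10.01, 11.3 and 9.28 CPM in MR libraries, against 5.27, 5.91 and 7.01 CPM in Sham libraries, and rose by 68.6% (log2 fold change 0.75 ± 0.16, edgeR adjusted p = 0.00971). This rise stayed called without any one library, with adjusted p from 0.0139 to 0.0442, and with library totals and on log2(TPM + 1). The ornithine carrier Slc25a15 had 14.6 ± 2.27 CPM in MR and 18.9 ± 1.14 CPM in Sham libraries (edgeR adjusted p = 0.0698), and Slc25a29, a carrier of basic amino acids, had 4.69 ± 0.81 CPM in MR and 6.28 ± 0.51 CPM in Sham libraries (edgeR adjusted p = 0.102). Neither passed, although the groups did not overlap in CPM. Slc25a44 (branched-chain amino acids), Slc25a38 (glycine, for haem synthesis) and Slc25a47 were not called, with edgeR adjusted p of 0.309, 0.224 and 0.764.

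Among the carriers of cofactors, nucleotides and coenzyme A, 3 of 9 fell and 0 rose with edgeR and TMM (4 and 0 at an unadjusted p below 0.05, 2 and 0 with DESeq2). The edgeR shares were 33.3% lower and 0% higher, against 10.6% and 11.8% of all genes. With library totals Slc25a26 stayed called lower, Slc25a42 and Slc25a16 did not, and Slc25a17 was called higher. Slc25a26, which imports S-adenosylmethionine for methylation in the matrix, had the lowest log2 fold change of all tested carriers. It had 31, 18.4 and 23.1 CPM in MR libraries, against 41.8, 35.1 and 39.4 CPM in Sham libraries (-0.69 ± 0.16, edgeR adjusted p = 0.0164). The call was lost without Sham library 1 (0.0743) and without Sham library 3 (0.0526), and ranged from 0.00254 to 0.0743 over the leave-one-out fits. Its exons share 144 bases with those of Lrig1 on the opposite strand. Slc25a42, a coenzyme A carrier, had 49.2, 40.1 and 47.4 CPM in MR libraries, against 59.6, 53.5 and 65.8 CPM in Sham libraries (log2 fold change -0.39 ± 0.11, edgeR adjusted p = 0.0316). Slc25a16, linked to coenzyme A metabolism, had 33.7, 28.1 and 27.3 CPM in MR libraries, against 38.4, 36.2 and 37.9 CPM in Sham libraries (log2 fold change -0.34 ± 0.10, edgeR adjusted p = 0.0353). Both were lower in every MR library in CPM, but in TPM the groups overlapped. On log2(TPM + 1) neither was called, with -0.05 for Slc25a42 (limma adjusted p = 0.76) and -0.0054 for Slc25a16 (0.975). Slc25a42 stayed called without Sham library 2 or MR library 1 and had adjusted p of 0.0598 to 0.108 in the other 4 fits. Slc25a16 stayed called only without MR library 1, with 0.0754 to 0.127 in the other 5.

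Slc25a51, the NAD carrier and the most abundant of this class, had 79.1, 75.8 and 77.5 CPM in MR libraries, against 84.7, 85.7 and 80.8 CPM in Sham libraries. The groups were narrowly apart but the difference was not called (-0.11 ± 0.08 as log2 fold change, edgeR adjusted p = 0.354), and its sign turned with library totals (0.09) and on log2(TPM + 1) (0.22). Slc25a17, a peroxisomal carrier of cofactors, Slc25a32 (folate and flavin), and Slc25a33 and Slc25a36 (pyrimidine nucleotides) were not called either. Of these, Slc25a33 had the lowest log2 fold change, -0.37 ± 0.15 with an edgeR adjusted p of 0.113, and Slc25a36 was at 0.00 ± 0.09. With limma on log2(TPM + 1), 2 of the class were called higher and 0 lower, where 38.6% of all genes were called higher. The 2 were Slc25a17 (0.47, limma adjusted p = 0.0123) and Slc25a36 (0.32, 0.0184).

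Of the 4 iron and glutathione carriers, 1 rose with edgeR and TMM (25%, against 11.8% of all genes). Slc25a37 (mitoferrin-1), which brings iron into mitochondria and is strongest in erythroid cells, had 57.7, 62.2 and 59 CPM in MR libraries, against 39.9, 46.1 and 51.6 CPM in Sham libraries. It rose by 30.3% (log2 fold change 0.38 ± 0.10, edgeR adjusted p = 0.028) and was also called higher with library totals and on log2(TPM + 1). The call held in 2 of the 6 leave-one-out fits (without Sham library 3 and without MR library 1) and was lost without Sham library 1 (0.0878), Sham library 2 (0.0776), MR library 2 (0.0795) and MR library 3 (0.0626), in a range of 0.025 to 0.0878. Slc25a28 (mitoferrin-2), its broadly expressed paralog, was not called, at 33.6 ± 2.39 CPM in MR and 33.9 ± 1.22 CPM in Sham libraries (log2 fold change -0.01 ± 0.09, edgeR adjusted p = 0.934), but on log2(TPM + 1) it was called higher too (0.31, adjusted p = 0.0454). Within libraries, Slc25a37 TPM was 98.9%, 119.6% and 115% of Slc25a28 TPM in MR, against 75.1%, 86.1% and 91% in Sham. The two-sided exact permutation p was 0.1, the smallest possible, and 0.3 adjusted over 6 ratios. This ratio too was chosen after the values of both genes were seen, which neither p takes into account. Erythroid and macrophage markers were higher in MR libraries by the sums given above, and their part in the Slc25a37 result was not tested. Slc25a39 had 77.9 ± 2.68 CPM in MR and 89.8 ± 3.24 CPM in Sham libraries without overlap but did not pass (edgeR adjusted p = 0.107), its sign turned on log2(TPM + 1) (0.13), and its paralog Slc25a40 was not called (edgeR adjusted p = 0.848).

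Slc25a46, an outer membrane protein of the family that takes part in mitochondrial dynamics, had 67.6, 65.6 and 70.8 CPM in MR libraries, against 87.9, 93.3 and 76.4 CPM in Sham libraries. Its log2 fold change was -0.34 ± 0.10 (edgeR adjusted p = 0.0357), the smallest of the calls, and the call was lost with library totals (-0.13, adjusted p = 0.326) and on log2(TPM + 1), where the value was 0.00. Leaving out a library ended the call in 5 of 6 fits, with adjusted p of 0.0657 to 0.118 in those and 0.0292 without Sham library 3. Slc25a34, whose substrate is not assigned, had 20.6, 22.8 and 33.7 CPM in MR libraries, against 49.2, 35 and 37.5 CPM in Sham libraries. The highest MR library came close to the lowest Sham library, and the log2 fold change was -0.66 ± 0.19 (edgeR adjusted p = 0.0314), with the call lost in 4 of 6 fits (adjusted p of 0.00519 to 0.133 over all 6, lost without MR library 1 or 2 or Sham library 1 or 3) and with library totals (-0.46, adjusted p = 0.0801). Slc25a35 and Slc25a53 were not called, with edgeR adjusted p of 0.316 and 0.649.

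No carrier of di- and tricarboxylates, of ATP-Mg and phosphate or of the uncoupling-protein-like class passed edgeR's test. At an unadjusted p below 0.05 there was 1 in each of these classes, Slc25a1, Slc25a24 and Slc25a30, all higher in MR, and DESeq2 called 1 of them, Slc25a1. All 3 were called higher with library totals (adjusted p of 0.033, 0.0116 and 0.0154) and on log2(TPM + 1) (0.0372, 0.00646 and 0.00704), and Slc25a27 on log2(TPM + 1) alone (0.0343). The highest fold among them was that of Slc25a1, the citrate carrier that supplies cytosolic acetyl units for fatty acid synthesis. It had 15, 20.6 and 8.53 CPM in MR libraries 1 to 3, against 9.96, 8.61 and 8.46 CPM in Sham libraries. MR library 3 lay within the Sham range, and the log2 fold change was 0.69 ± 0.27 (edgeR adjusted p = 0.0855). The order of the MR libraries was that of their fat cell markers, 348, 604 and 7.13 CPM, whose part in the result was not tested. When MR library 3 alone stood for the MR group, the log2 fold change of Slc25a1 was -0.09 (edgeR adjusted p = 0.82), a fit that takes the spread of that lone library from the Sham group. Without MR library 3 it passed (edgeR adjusted p = 0.00567), in a leave-one-out range of 0.00567 to 0.301. Slc25a10, the dicarboxylate carrier, was not called (edgeR adjusted p = 0.923).

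Slc25a24, a calcium-regulated ATP-Mg and phosphate carrier of proliferating cells, had 19.1, 19.9 and 17.4 CPM in MR libraries, against 16.5, 14.2 and 11.9 CPM in Sham libraries. It came nearest to the threshold from outside (log2 fold change 0.40 ± 0.13, edgeR adjusted p = 0.0593). Cell cycle genes were higher in MR libraries by the sums given above, and their part in the values of Slc25a24 and Slc25a5 was not tested. Slc25a23, the most abundant of this class, had 88.7 ± 5.75 CPM in MR and 94.8 ± 11.2 CPM in Sham libraries, overlapping (log2 fold change -0.10 ± 0.11, edgeR adjusted p = 0.559), with a positive sign under library totals (0.11) and on log2(TPM + 1) (0.24). Slc25a25, the third of the class, was not called (edgeR adjusted p = 0.548). Of the uncoupling-protein-like carriers, Slc25a27 (log2 fold change 0.15 ± 0.14, edgeR adjusted p = 0.462), Slc25a30 (0.26 ± 0.11, 0.126) and Slc25a14 (-0.17 ± 0.23, 0.636) were not called.

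The summed carrier TPM was 4098, 3676 and 3877 in MR libraries, against 4790, 3869 and 4329 in Sham libraries, with overlap between the groups. Without Slc25a4 the sums were 1630 ± 81 TPM in MR and 1580 ± 94.2 TPM in Sham libraries. The Slc25a4 transcript alone thus set the sign of the difference in the sum on this scale. As a share of all counts, the family held 0.463 ± 0.0228% in MR and 0.553 ± 0.0526% in Sham libraries, without overlap. In TMM-scaled CPM the sum was 4514, 3960 and 4495 in MR libraries and 6515, 5548 and 5784 in Sham libraries, also without overlap.

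The carriers were then set against the transcripts whose products work beside them. Of 84 tested nuclear-encoded subunits of the oxidative phosphorylation (OXPHOS) complexes, 70 fell and 0 rose with edgeR's test (83.3% lower, against 10.6% of all genes), against 72 and 0 with DESeq2 and 74 and 1 at an unadjusted p below 0.05. With library totals 39 fell and 1 rose, and on log2(TPM + 1) 10 fell and 3 rose. Their median was -0.52 as a log2 fold change and -0.18 on log2(TPM + 1). The smallest p-values were those of Sdhb (complex II, log2 fold change -0.73 ± 0.10), Ndufb8 (-0.77 ± 0.11), Ndufb10 (-0.88 ± 0.13) and Ndufa9 (-0.66 ± 0.11), the last 3 of complex I, with edgeR adjusted p of 0.00211 to 0.00415. Counts of Slc25a4 were 10.7%, 11.5% and 11.4% of the summed OXPHOS counts in MR libraries, against 12.6%, 11.2% and 11% in Sham libraries. The groups overlapped in this ratio, as they did for Slc25a11 (1.45 ± 0.03% in MR and 1.44 ± 0.04% in Sham) and Slc25a20 (0.235 ± 0.0045% in MR and 0.239 ± 0.0092% in Sham). Slc25a5 counts were 1.34 ± 0.16% of the OXPHOS sum in MR and 0.951 ± 0.032% in Sham libraries, higher in 3 of 3 MR libraries, and those of Slc25a3 were 3.49 ± 0.12% in MR and 3.19 ± 0.19% in Sham libraries, narrowly without overlap. Against the summed cardiomyocyte markers, the ratios of Slc25a4, Slc25a3, Slc25a11, Slc25a5 and Slc25a20 all overlapped between the groups. Myh6 was the largest part of that sum and was not called itself (edgeR adjusted p = 0.194). It had 27040, 17030 and 21170 CPM in MR libraries, against 25850, 28870 and 32300 CPM in Sham libraries. Overlap of such a ratio at 3 against 3 cannot show that the groups are alike. The part of the cardiomyocyte share of the tissue in the carrier results was not tested.

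**Figure D4:**
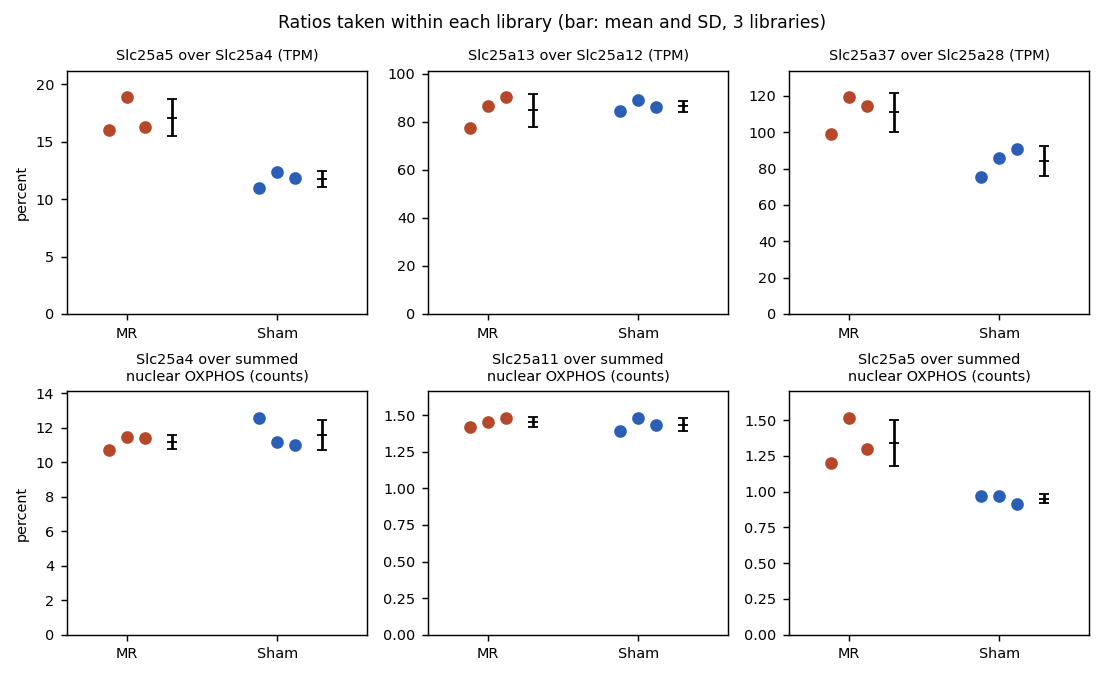
Ratios within each library in percent, MR left of Sham, with mean and SD (n = 3); the top row sets carriers against a paralog (TPM) and the bottom row sets carriers against the summed nuclear OXPHOS counts. Slc25a5 is higher in MR against Slc25a4 and against OXPHOS, Slc25a37 is higher against Slc25a28, and Slc25a4 and Slc25a11 overlap between groups when set against OXPHOS.

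All 3 outer membrane channels fell with edgeR, DESeq2 and limma-voom: Vdac1 (log2 fold change -0.63 ± 0.13, edgeR adjusted p = 0.00977), Vdac3 (-0.52 ± 0.11, 0.0115) and Vdac2 (-0.40 ± 0.10, 0.0228). Of all genes, 10.6% fell with edgeR. With library totals Vdac1 alone was called lower (Vdac3 had an adjusted p of 0.0523 and Vdac2 of 0.173), and on log2(TPM + 1) none was. These pores pass the metabolites that inner membrane carriers exchange; the Vdac2 call was lost without Sham library 1 (0.0838), Sham library 3 (0.0587) or MR library 2 (0.0591), in a leave-one-out range of 0.0337 to 0.0838. The next list held 12 enzymes of the malate-aspartate, glycerol phosphate (Gpd1, Gpd1l, Gpd2) and carnitine systems, with Acly. Of these 12, 6 fell and 0 rose with edgeR and with DESeq2 (7 and 2 at an unadjusted edgeR p below 0.05). This was a share of 50% lower, against 10.6% of all genes. Gpd1, Gpd1l, Gpd2 and Acly were not among the 6 called by edgeR. With library totals 5 fell and 2 rose, and on log2(TPM + 1) 0 fell and 2 rose. Cytosolic Mdh1 (log2 fold change -0.65 ± 0.13, edgeR adjusted p = 0.00869), mitochondrial Mdh2 (-0.62 ± 0.13, 0.00963), cytosolic Got1 (-0.68 ± 0.14, 0.0101) and the acetyltransferase Crat (-0.60 ± 0.13, 0.0102) had the smallest p-values. Each of these 4 stayed called without any one library and with library totals, but not on log2(TPM + 1).

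Of 8 phosphoryl transfer partners of the nucleotide translocase, 2 fell and 1 rose (25% and 12.5%, against 10.6% and 11.8% of all genes). Ckmt2, the mitochondrial creatine kinase of striated muscle, had 367 ± 70.3 CPM in MR and 677 ± 48.1 CPM in Sham libraries (log2 fold change -0.88 ± 0.14, edgeR adjusted p = 0.00443). Ppif, the matrix cyclophilin of the permeability transition pore, was at -0.55 ± 0.10 (0.00667). Ckmt1, the ubiquitous creatine kinase isoform, had 6.26 ± 1.77 CPM in MR and 2.4 ± 1.1 CPM in Sham libraries (log2 fold change 1.35 ± 0.32, edgeR adjusted p = 0.0165, and 0.0573 without Sham library 3, the highest of a leave-one-out range that began at 0.00973). The striated-muscle forms Slc25a4 and Ckmt2 were thus both lower.

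Other inner membrane transporters went both ways, with 7 of 21 lower and 3 higher (33.3% and 14.3%, against 10.6% and 11.8% of all genes). With library totals 5 were lower and 5 higher, and on log2(TPM + 1) 0 were lower and 7 higher. Higher with TMM were the sideroflexins Sfxn3 (log2 fold change 0.68 ± 0.14, edgeR adjusted p = 0.00896) and Sfxn1 (0.42 ± 0.11, 0.0242) and Letmd1 (0.53 ± 0.11, 0.0105). The pyruvate carrier subunits Mpc1 (log2 fold change -0.55 ± 0.11, edgeR adjusted p = 0.00818) and Mpc2 (-0.56 ± 0.10, 0.00655) and the cation exchanger Letm1 (-0.51 ± 0.09, 0.00612) had the smallest p-values of those that fell. In the TIM22 insertion pathway 2 of 13 fell and 0 rose with edgeR and with DESeq2 (8 and 0 at an unadjusted edgeR p below 0.05), Tomm22 (-0.38 ± 0.09, edgeR adjusted p = 0.018) and Timm8b (-0.37 ± 0.10, 0.0243), a share of 15.4% lower against the background of 10.6%. None of the 13 was called with library totals, and 1 was called higher on log2(TPM + 1). Both lost the call without Sham library 1 or MR library 2, and Timm8b also without Sham library 2 or 3, with leave-one-out adjusted p of 0.0309 to 0.0593 for Tomm22 and 0.0315 to 0.0781 for Timm8b. Of the 4 tested family carriers that carry another name, 1 fell with edgeR (25%, against 10.6% of all genes) and 2 with DESeq2. The 1 was Ucp2, an uncoupling protein homolog (-0.44 ± 0.11, edgeR adjusted p = 0.017, lost without Sham library 1 at 0.0644 or Sham library 3 at 0.0573). With library totals none of the 4 was called (Ucp2 at -0.24, edgeR adjusted p = 0.11). On log2(TPM + 1) 1 of the 4 was called higher and 0 lower. Of 13 mitochondrially encoded mRNAs 2 fell and 0 rose with edgeR (6 and 0 at an unadjusted p below 0.05), while DESeq2 called 8 lower and 0 higher. The edgeR share was 15.4% lower, against 10.6% of all genes, and 1 was called lower with library totals and 0 on log2(TPM + 1). The 2 were ATP8 (-1.44 ± 0.36, edgeR adjusted p = 0.02, with 29 ± 1.43 CPM in MR and 78.3 ± 42.1 CPM in Sham libraries) and COX3 (-0.51 ± 0.15, 0.0407). The groups overlapped for ATP8, with Sham library 3 at 29.94 CPM within the MR range of 27.72 to 30.53 CPM. Sham libraries 1 and 2 had 97.65 and 107.3 CPM of it. ATP8 lost the call without Sham library 1 or 2 or MR library 2, and COX3 in each leave-one-out fit but that without MR library 2.

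**Figure D5:**
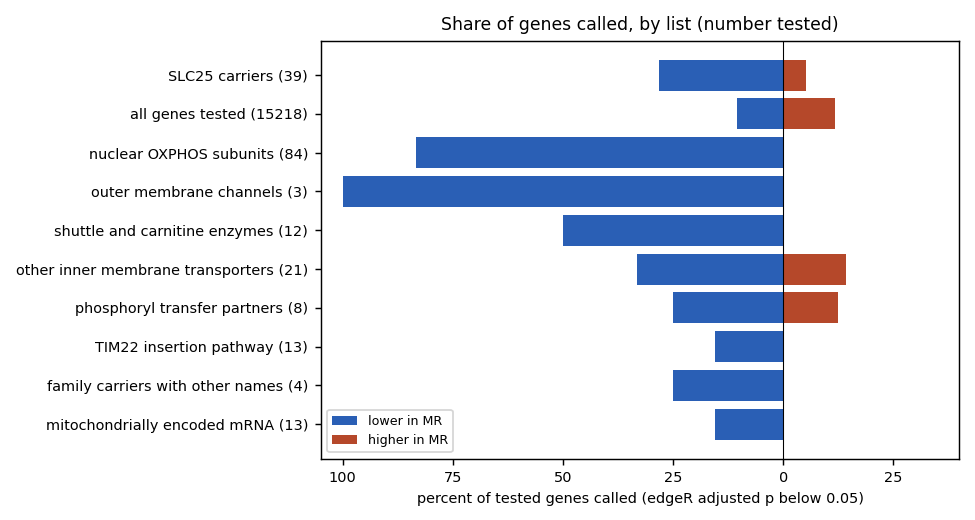
Percent of tested genes called lower (left) and higher (right) in MR by edgeR at an adjusted p below 0.05, for the carriers, for all 15218 genes tested and for 8 lists of partner genes (number tested in brackets). Carriers stand at 28.2% lower and 5.13% higher, all genes at 10.6% and 11.8%, and nuclear OXPHOS subunits at 83.3% lower and 0% higher; with library totals or TPM in place of TMM fewer genes are called lower.

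In the authors' deposited table of fold changes, 43 carriers had an adjusted p-value, and 19 of them were past 0.05, 15 lower and 4 higher in MR. That table rests on the same 6 libraries. The share of all its genes past 0.05 was not taken, so these counts have no background to be read against.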

How the data were processed

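Poly(A) RNA libraries from 6 left atria (3 MR, 3 Sham) were made with a stranded kit and sequenced as paired ends, per the labels' protocols. The submitters' processing notes name fastp, HISAT2 2.1.0, featureCounts of Subread 2.0.1, DESeq2 and build GRCm39; the sources used here give neither the annotation nor the strand setting. The deposited table holds counts per gene, taken as raw because they are whole numbers with differing totals. Its TPM columns, deposited by the authors beside the counts, sum to 1000000; within each library, counts divided by TPM matched a fixed gene length within a relative deviation of 9.2e-15. The authors also deposited a log2 fold change and its p-value, raw and adjusted.

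Counts were tested with edgeR 4.0.16 (TMM, filterByExpr, quasi-likelihood test, Benjamini-Hochberg at 0.05 over 15218 genes). An SE is the size of the coefficient over the square root of F. Levels are means ± SD over 3 libraries, and at 14124407 to 20039490 counts per library a floor of 3 counts was 0.15 to 0.212 CPM, covering counting error only. The 6 within-library ratios were compared by exact permutation. Alternatives were DESeq2 1.42.0 and its size factors, library totals, other filters, limma-voom, GC and length trends removed, mitochondrial and haemoglobin genes left out, a replicate block, each library left out and MR library 3 alone. Alternatives with limma 3.58.1 on log2(TPM + 1), log2(TPM + 0.1) and without a filter were chosen after the data were seen, as was the symbol pattern of the mitochondrially encoded list. Within a group, pairs of libraries had chi-square values of 12.1 to 20.8 per degree of freedom, far above sampling noise, and none was counted as a duplicate.

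The carriers, roles and lists were chosen with earlier results of these data known. Named genes were all called carriers, the most abundant of each role, untested carriers, up to 4 called genes per partner list by smallest p, and the highest and lowest fold change; the other carriers, the partner genes called higher beside called lower ones and the ratios shown were added after their values were seen. The results of some members and listed genes are not reported here. The protein sequences planned for paralogs were not used here. Promoter motifs were searched on both strands of RefSeq windows of 250 bases.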

Additional observations from a re-analysis of the deposited data

How the results depend on the processing

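Over 19 alternatives for 18 named carriers (342 values), 237 kept their direction and side of the threshold, 82 kept the direction but not the call, 8 gained a call and 15 changed sign. Slc25a11, Slc25a13, Slc25a20 and Slc25a45 stayed called in all 6 fits that left out a library. The cause of the changes below was not tested, except that fits with fewer libraries have fewer residual degrees of freedom.

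Leaving out a library gave 5 to 14 called carriers (13 with all libraries, 5 without Sham library 1, 7 when MR library 2 and 8 when Sham library 3 was dropped), 1583 to 3453 called genes (3408 with all, 1583, 1897 and 1941 when Sham library 1, Sham library 2 and MR library 2 were dropped), 54 to 96 called partner genes (97 with all, 54 without Sham library 1) and a carrier median of -0.18 without Sham library 1, against -0.14, in a range of -0.18 to -0.12. With MR library 3 alone for its group, assumed to vary like the others, 1 carrier, 976 genes and 23 partner genes were called, and Slc25a1 turned to -0.092. Library totals gave a carrier median of 0.062, 62 partner genes (9 higher, 53 lower), Slc25a23 at 0.11 and Slc25a51 at 0.094. Called genes were 47.4% lower ones with TMM, 12.5% with library totals and 4.07% on log2(TPM + 1). Removing GC and length trends gave a median of -0.19.

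On log2(TPM + 1), 6120 genes and 26 partner genes were called and the carrier median was 0.18, with Slc25a46 at 0.0033, Slc25a23 at 0.24, Slc25a51 at 0.22 and Slc25a39 at 0.13. On log2(TPM + 0.1) these were 6140 genes, 26, 0.19, 0.0034, 0.24, 0.22 and 0.13. Without a filter, 6 carriers and 11 partner genes were called, with the median (0.18) and the values of Slc25a46 (0.0033), Slc25a23 (0.24), Slc25a51 (0.22) and Slc25a39 (0.13) as with it. The summed carrier TPM differed between MR and Sham by -446 on average, by -891 with mitochondrial and haemoglobin genes left out of the total, and by 50.03 without Slc25a4.

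Same-numbered libraries did not deviate together (correlations of -0.02, 0.00 and -0.17 for pairs 1 to 3). The labels state no pairing, and so few pairs cannot show whether the mice were paired. With the replicate block, 13 carriers were called (3 higher, 10 lower, 12 of them shared) and 3085 genes; Slc25a46 lost its call (0.0662).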
